A study of Mus musculus with 4 samples.

Results

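A set of 6 multidomain genes of the BCL2 family were examined in irradiated Lin-Sca-1+c-Kit+ (LSK) cells, the bone marrow fraction that holds haematopoietic stem cells and early progenitors. The members were the pro-survival genes Bcl2, Bcl2l1, Mcl1 and Bcl2l2 and the pore-forming genes Bak1 and Bok. They were chosen by their known role, with earlier results of these data at hand, and matched by symbol. All 6 were on the array, out of 18194 genes, and were read by 22 of its 45101 probe sets. Per the labels, C57BL/6 mice were reconstituted with fetal liver cells and given a sublethal dose of 6.5 Gy, in an order that the labels do not spell out. In 1 group the fetal liver cells were necdin null and in the other wild type, with 2 arrays in each, and all 4 arrays come from irradiated, reconstituted mice. The time from irradiation to collection, the age of the mice and the share of remaining host cells are not given in the sources used here. Unirradiated cells were not analysed here, so no response to irradiation itself could be read. Nothing in the labels says that the 2 arrays of a group came from separate animals, so p-values reflect the spread among these arrays alone, part of which may be technical.

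BCL2 family proteins set whether the outer mitochondrial membrane stays intact. The pro-survival members bind and hold back the pore-forming members and the BH3-only proteins that trigger them, and once pores form, cytochrome c leaves the mitochondrion and caspases are activated. MCL1 is a short-lived protein on which haematopoietic stem cells are known to depend, and BH3-only genes such as Bbc3 are induced by p53 after DNA damage.

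The comparison asked whether the loss of necdin, a protein that restrains cell growth, came with different transcript levels of these genes in irradiated LSK cells. None of the 6 genes passed the test, and the largest difference was that of Bcl2l2, lower on both necdin null arrays. The signals used are MAS5 signals, a linear intensity in arbitrary units whose trimmed mean is the same, 500.004, on every array. Differences are in log2(signal + 3.80), necdin null minus wild type, and therefore understate the change of dim probe sets. Where a gene has several probe sets, its main one is that of highest mean log2 value. A probe set counted as measured at or above a mean log2 value of 5.09, a signal of about 30.3.

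Ndn, which encodes necdin, was lower on both necdin null arrays than on both wild type arrays for 6 of its 8 probe sets. Its main probe set, 1437853_x_at, read 55.4 and 105 in necdin null cells, above the filter, where wild type cells had 253 and 255; limma's unadjusted p was 0.0056 and its adjusted p 0.999. Probe set 1435382_at differed more, with 2.73 and 12.1 against 559 and 391.8, and on 2 dim probe sets the groups overlapped. All 10 LSK and early progenitor markers that could be read were above the filter, with a summed signal of 44822 to 46548 in necdin null and 42071 to 52015 in wild type cells. Of 6 T and NK cell markers that could be read, Cd3e, Cd3d, Cd3g and Cd4 were below the filter, Cd8a was just above it at 18.7 to 64.0, and Nkg7, a cytotoxic granule gene, was well above it at 3047 to 4045. The 14 neutrophil markers were all above it, with summed signals of 102976 to 212480 in necdin null and 78943 to 148481 in wild type cells. Necdin null replicate 2 stood apart in its Gapdh 3' to 5' ratio, 15.8 against 9.96 to 11.7 on the other arrays, and 37.4% of its signal lay in the brightest 1% of probe sets, compared with 28.9% to 30.6% elsewhere.

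Mcl1 had the highest signal of the 6 genes on every array. Its main probe set read 10907 and 10521 for necdin null and 11486 and 10653 for wild type cells, above 97.7% of all genes. Bcl2, the founding survival gene of the family, came next with 2409 and 2733 in necdin null, beside 2261 and 2711 in wild type cells. Bcl2l1, which encodes BCL-XL, followed with 713 and 783 against 589 and 949. No array of any of these 3 genes reached an array of its neighbour in the order.

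The lower end of the order was not resolved. Bok, a pore-forming relative of BAK, had 318 and 289 in necdin null, beside 331 and 312 in wild type cells. Bcl2l2, which encodes BCL-W, had 315 and 208 against 394 and 335. Bak1, which encodes the pore-forming protein BAK, had 245 and 214 against 211 and 262. The signals of Bok and Bcl2l2 overlapped, as did those of Bcl2l2 and Bak1. On both wild type arrays Bcl2l2 read above Bok, and on both necdin null arrays it read below Bok. Probe sets differ in affinity, so the order is one of signals and not of transcripts.

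**Figure D1:**
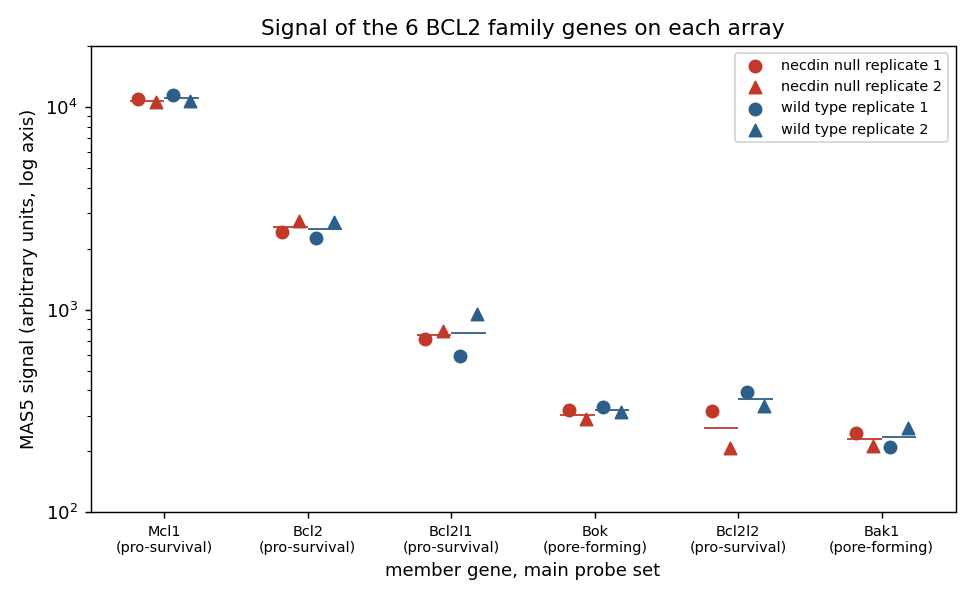
MAS5 signal (log axis, arbitrary units) of the main probe set of each gene on the 4 arrays, necdin null in red and wild type in blue, circles for replicate 1 and triangles for replicate 2, with short lines at the group means. Mcl1 sits between 10521 and 11486, Bcl2 between 2261 and 2733, and Bok, Bcl2l2 and Bak1 lie among each other between 208 and 394.

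Among the pro-survival genes, Mcl1 was the steadiest, with a range of 0.13 in log2 value over the 4 arrays. Its necdin null arrays averaged 10714 ± 273 (SD, n = 2) and its wild type arrays 11069 ± 589 (SD, n = 2). The log2 difference was -0.046 (standard error 0.19), and the groups overlapped. Bcl2 had 2571 ± 229 (SD, n = 2) against 2486 ± 318 (SD, n = 2), a log2 difference of 0.051 (standard error 0.19). Bcl2l1 had 748 ± 49.2 (SD, n = 2) against 769 ± 254 (SD, n = 2), and both necdin null arrays lay between its wild type arrays. Necdin null minus wild type, its replicate 1 arrays differed by 0.27 and its replicate 2 arrays by -0.28, and the group difference was -0.00092. With both necdin null arrays between the wild type arrays, opposite signs follow whichever way the arrays are paired.

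Bcl2l2 was the only member whose groups did not overlap. The necdin null arrays averaged 262 ± 76.3 (SD, n = 2) and the wild type arrays 364 ± 41.8 (SD, n = 2). The log2 difference was -0.50 (standard error 0.35), and limma's adjusted p over all 12680 genes was 0.999 (unadjusted p = 0.18). Over all genes tested, groups did not overlap for 30.5%, with 17.7% lower and 12.8% higher in necdin null cells, so 1 of 6 members is no more than the share found across the array. The lowest of its 4 signals, 208, was on necdin null replicate 2, the array that stood apart in its Gapdh ratio. Without that array the log2 difference was -0.20, and without necdin null replicate 1 it was -0.80. Of the 4 probe sets for Bcl2l2, 3 were below the filter with signals of at most 61.4, so the difference rests on 1 probe set. Probe set 1451029_at, below the filter, shares its annotated target with the main one. It gave 2.87 and 61.4 in necdin null, beside 45.8 and 9.26 in wild type cells.

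The pore-forming genes had group means close to each other and overlapping groups. Bak1 averaged 229 ± 22.4 (SD, n = 2) for necdin null and 236 ± 36.1 (SD, n = 2) for wild type, with a log2 difference of -0.038 (standard error 0.35). With the mean of all its probe sets, 1 of them dim, the difference was -0.59 and the groups did not overlap, where 31.7% of all genes were apart. The highest and the lowest signal of its main probe set were both on wild type arrays. Bok had 304 ± 20.5 (SD, n = 2) against 321 ± 13.3 (SD, n = 2), a log2 difference of -0.081 (standard error 0.31). Necdin null replicate 1, at 318, read above wild type replicate 2, at 312.

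No member passed limma's test at an adjusted p of 0.05, where 0% of the 12680 genes passed, and no member had an unadjusted p under 0.05, against 3.02% of genes. These p-values do not show equal levels. The 95% intervals of the ratio of necdin null to wild type ran from 0.72 to 1.31 for Mcl1, 0.76 to 1.41 for Bcl2 and 0.64 to 1.55 for Bcl2l1. They ran from 0.41 to 1.22 for Bcl2l2, 0.56 to 1.70 for Bak1 and 0.58 to 1.54 for Bok. The intervals use limma's moderated variance, which draws on all genes of similar signal. The median log2 difference of all genes tested was -0.031. With 2 arrays a group, the smallest two-sided p that an exact permutation test allows is 0.333.

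Probe sets of the same gene read the same RNA and are not replicates, but they show how far a result depends on the choice of probe set. Of the 22 member probe sets 15 were above the filter. None passed limma's test over the 27061 probe sets above it (0% of all), the smallest adjusted p was 0.996, and none had an unadjusted p under 0.05, against 3.48% of all. Groups did not overlap for 5 of the 15, against 31.4% of all probe sets. Of these 4 were lower in necdin null cells, where 16% of all probe sets were, and 1 was higher, where 15.4% were.

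Mcl1 was read by 6 probe sets, all above the filter. Both necdin null arrays read below both wild type arrays on 3 of them, against 16% of all probe sets, and on 2 with median centring. Probe set 1416880_at gave 4170 and 3101 in necdin null, beside 5265 and 4177 in wild type cells; the log2 difference was -0.38 (standard error 0.23). Probe set 1416881_at gave 809 and 766 against 979 and 1101 (-0.40, standard error 0.22). Probe set 1456381_x_at gave 7115 and 7112 against 8039 and 7865 (-0.16, standard error 0.18). For 1416880_at the groups were barely apart, with 4170 on necdin null replicate 1 and 4177 on wild type replicate 2.

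The other Mcl1 probe sets had smaller differences, and their signs moved with the scaling: 2 of the 6 were above 0, and 0 with median centring or quantile normalization. Probe set 1456243_x_at gave 9145 and 8956 against 9111 and 8903, a log2 difference of 0.0070. Probe set 1448503_at gave 5934 and 6769 against 5961 and 6461, a log2 difference of 0.030. It shares its annotated target sequence with 1416880_at and 1416881_at, so probe sets designed on the same target differed in sign before such scaling.

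**Figure D2:**
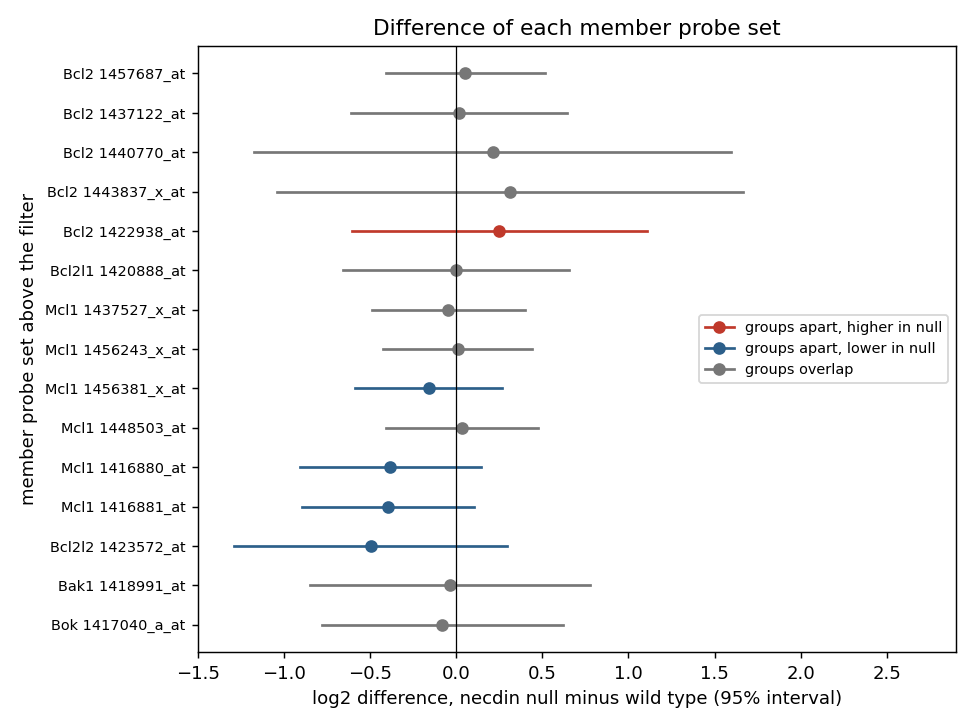
Log2 difference (necdin null minus wild type) with its 95% limma interval for the 15 member probe sets above the filter, coloured by whether the groups overlapped. Every interval spans 0; the lowest values are those of Bcl2l2 at -0.50 and of Mcl1 probe sets at -0.40 and -0.38, and the 5 Bcl2 probe sets lie between 0.016 and 0.31.

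Bcl2 was read by 5 probe sets, all above the filter. All 5 had a mean difference above 0, and 3 of 5 with median centring of the arrays. On 2 of them the signals differed far more by replicate number than by genotype. Probe set 1440770_at read 348 and 1175 for necdin null and 355 and 859 for wild type cells. Probe set 1443837_x_at gave 312 and 1162 against 353 and 666. On these probe sets replicate 2 was above replicate 1 by 3.38-fold and 3.72-fold in necdin null and by 2.42-fold and 1.89-fold in wild type cells. The genotype differences, 0.21 and 0.31 with standard errors of 0.60 and 0.58, were small beside that.

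On the 3 remaining Bcl2 probe sets replicate 2 also read above replicate 1 in both groups, by smaller steps. Probe set 1437122_at gave 624 and 724 in necdin null, beside 553 and 799 in wild type cells. Probe set 1422938_at gave 196 and 236 against 169 and 192, the only member probe set with both necdin null arrays above both wild type arrays. For the main probe set, 1457687_at, replicate 2 was above replicate 1 by 1.13-fold and 1.20-fold. Both replicate 2 arrays thus read above the replicate 1 array of their group for 5 of 5 Bcl2 probe sets (4 with median centring), a pattern found for 28.3% of all probe sets above the filter.

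Markers of other cell types differed between the same arrays, and some of them were below the filter. For 12 of the 14 neutrophil markers both replicate 2 arrays were above the replicate 1 array of their group, against 27.3% of all genes, and for 11 with median centring or quantile normalization. That list had a median deviation of -0.29 on necdin null replicate 1 and 0.86 on necdin null replicate 2, with -1.03 and 0.40 for wild type replicates 1 and 2. Both replicate 2 arrays were likewise higher for 4 of 6 B lineage, 3 of 4 monocyte and macrophage and 1 of 2 T and NK markers. The same held for 1 of 4 erythroid, 1 of 5 megakaryocyte and 1 of 10 LSK markers. Median deviations of the LSK list instead fell from replicate 1 to replicate 2. They were 0.00093 and -0.12 in necdin null and 0.38 and -0.17 in wild type cells. Some lists also leaned with genotype, though none of their genes passed the test. Of the 14 neutrophil markers 13 had a higher mean in necdin null cells, at a median log2 difference of 0.43, and with quantile normalization 14 did. Groups were apart for only 3 of the 14 (2 with median centring), against 30.5% of all genes. Of the 6 B lineage markers 5 had a lower mean, at a median of -0.32 with none apart. The Lin- gate of the sort is meant to remove mature cells of these lineages, and Mpo and Elane of the neutrophil list are also known in early myeloid progenitors. In bulk cells a change in the share of a cell type and a change in RNA per cell cannot be told apart, and the part of these cells in the Bcl2 signals was not tested.

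**Figure D3:**
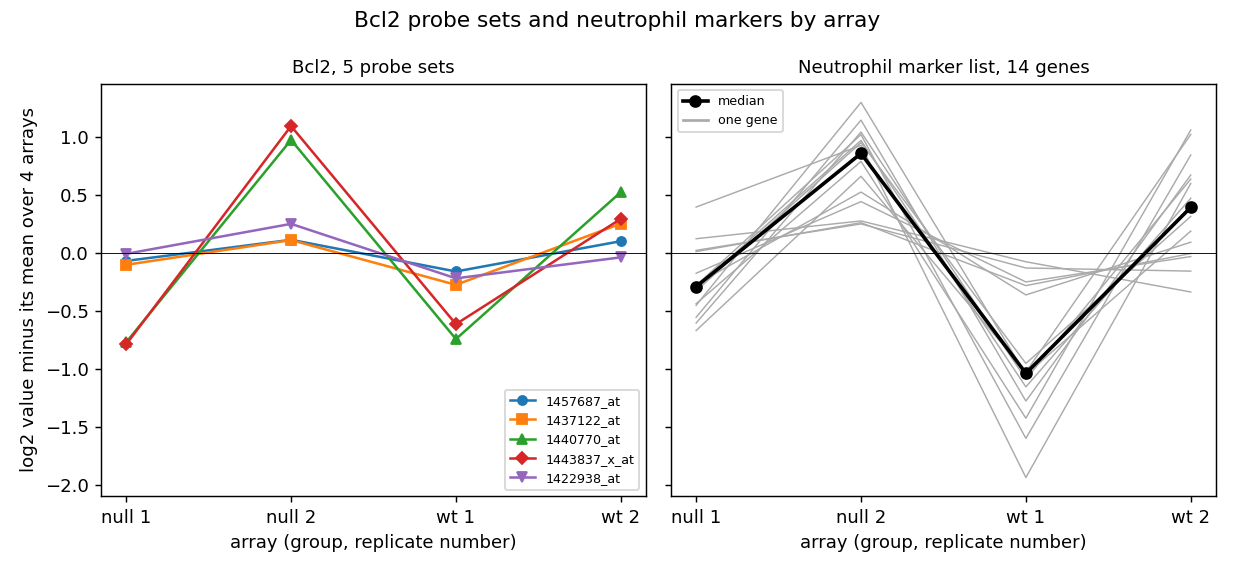
Log2 value minus its mean over the 4 arrays, for the 5 Bcl2 probe sets (left) and the 14 neutrophil markers (right, thin lines, with the median in black); lines join the values of 1 probe set or gene and imply no order of arrays. Both replicate 2 arrays lie above their group's replicate 1 array for every Bcl2 probe set, and the neutrophil median is 0.86 and 0.40 on these arrays.

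Bcl2l1, Bcl2l2 and Bak1 each rested on 1 measured probe set. For Bcl2l1 the 3 others gave at most 66.5, and for Bak1 the other gave at most 21.0. Probe set 1420887_a_at of Bcl2l1, which shares its annotated target with the main probe set, gave 7.99 and 7.48 in necdin null, beside 9.34 and 66.5 in wild type cells. Bok had a single probe set.

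Members were also set against each other within an array, where a scaling factor of the array cancels. On each array the mean deviation of the 2 pore-forming genes was subtracted from that of the 4 pro-survival genes. In necdin null cells this balance came to -0.074 and 0.0095, and in wild type cells to 0.013 and 0.052. The nearest arrays of the groups, 0.0095 and 0.013, were closer than the arrays of either group to each other, and with a pseudocount of 16 the groups overlapped, at 0.010 on necdin null replicate 2 and 0.0090 on wild type replicate 1. Averaging all probe sets of a gene, dim ones included, gave 0.023 and 0.22 against -0.53 and 0.28, with the groups overlapping.

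Across the 4 arrays the deviations of Mcl1 and Bok were the most alike, with a root mean square difference of 0.035 in log2 value, and those of Bcl2l1 and Bcl2l2 the least, at 0.48. Bcl2l2 had the widest range, 0.91 in log2 value. The tested genes whose centred values were nearest to it were Mest, an imprinted gene, at 0.0089, Asb8, a SOCS box gene, at 0.0099 and Itpripl2 at 0.019. With only 4 arrays 136 genes lay within 0.1 of Bcl2l2, so such likeness is common.

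**Figure D4:**
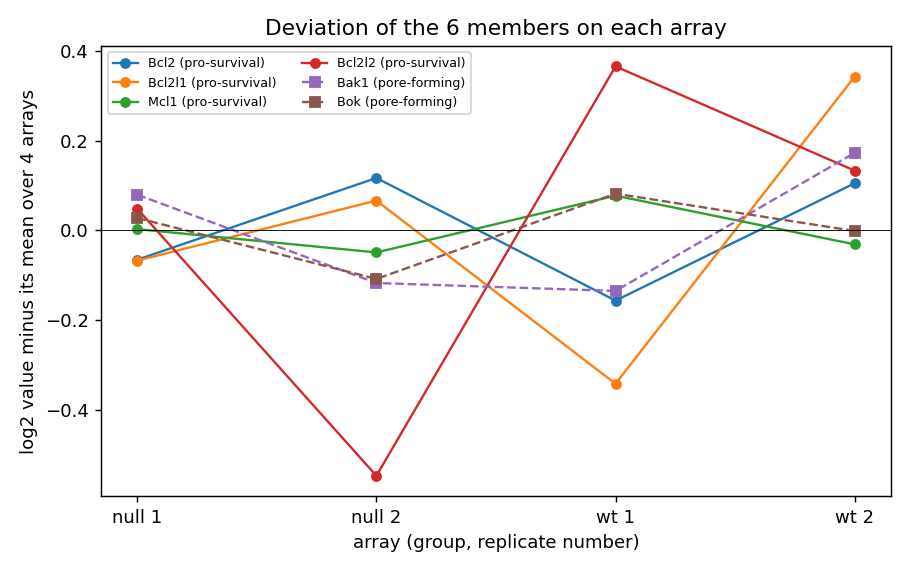
Log2 value of the main probe set minus its mean over the 4 arrays for the 6 genes, solid lines for pro-survival and dashed lines for pore-forming genes; lines join the values of 1 gene and imply no order of arrays. Bcl2l2 has the widest range, 0.91, and Mcl1 the narrowest, 0.13.

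The genes that act on these proteins were described next, starting with the BH3-only triggers. Of 8 BH3-only genes 6 were above the filter, of which 3 had higher and 3 lower means in necdin null cells; the median log2 difference was 0.036, and -0.045 with median centring. None passed the test. Bcl2l11, which encodes BIM, had the highest mean signal in both groups. It read 1782 and 1377 in necdin null, beside 751 and 1578 in wild type cells, and the groups overlapped. Bid, which links death receptors to the mitochondrion, had 485 and 758 against 450 and 492, also overlapping.

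For 3 of the 6 BH3-only genes the groups did not overlap, against 30.5% of all genes; the count was 4 with median centring or quantile normalization. Bbc3, which encodes PUMA, had 202 and 187 in necdin null, beside 206 and 314 in wild type cells (log2 difference -0.38). Its groups were barely apart, at 202 on necdin null replicate 1 and 206 on wild type replicate 1. Bad, whose protein is held inactive by survival kinases, had 745 and 681 against 854 and 891 (-0.29). Hrk had 79.4 and 77.1 against 34.1 and 65.5 (0.68), close to the filter, and only 1 of its 2 probe sets above the filter had that direction. Bmf had 281 and 231 against 261 and 399 (-0.34), with overlap.

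Of 9 further BCL2 family genes 5 could be read by a probe set naming 1 gene, and 3 were above the filter; Bax was not analysed here. None passed limma's test over all genes. Bcl2l12 had 198 and 197 in necdin null, beside 353 and 359 in wild type cells, at a log2 difference of -0.84 (standard error 0.33, limma unadjusted p = 0.031, adjusted p = 0.999). Its arrays agreed closely within each group, and 1 of its 2 probe sets was above the filter. Bcl2l13 had 1721 and 1277 against 1066 and 1181 (0.40). Bcl2l14 had 172 and 256 against 168 and 156 (0.37), with 1 of 2 probe sets above the filter in that direction.

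Among the genes that act after the pore has opened, 8 of 10 were measured, 6 higher and 2 lower, with a median of 0.064 and none past the test. With median centring 3 were higher and 5 lower. Apaf1, the scaffold of the apoptosome, had 1325 and 1532 in necdin null, beside 1213 and 1161 in wild type cells (log2 difference 0.26), although its probe sets split, with 1 of 2 in that direction. Aifm1, a mitochondrial flavoprotein, had 3411 and 3474 against 3110 and 3009 (0.17). Cycs, cytochrome c, had a log2 difference of 0.25, Diablo 0.072, Xiap, an inhibitor of caspases, 0.040 and Endog 0.056, while Casp9 had -0.20 and Htra2 -0.13.

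Of 4 outer membrane partners all were measured, with a median of 0.18 and none past the test. All 4 had a mean difference above 0, as did 5824 of the 12680 genes tested. With quantile normalization 3 of the 4 partners did, at a median of 0.049. For 2 partners, Vdac2 and Mtch2, the groups did not overlap, against 30.5% of all genes. That count was 1 with quantile normalization and 0 with median centring. Vdac2, the channel that binds BAK, had 15461 and 17678 in necdin null, beside 15279 and 13789 in wild type cells (log2 difference 0.19). Mtch2, a receptor for truncated BID, had 4489 and 4273 against 3832 and 3496 (0.26), with 2 of 3 probe sets in that direction. Vdac1 (0.18) and Vdac3 (0.13) had groups that overlapped, and for both the highest signal was on necdin null replicate 2. Only 2 of the 5 Vdac1 probe sets above the filter had that direction.

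Genes for the turnover of MCL1 protein numbered 6, all measured, 1 higher and 5 lower, with a median of -0.25 and none past the test; with quantile normalization 2 were higher and 4 lower. Huwe1, a ubiquitin ligase for MCL1, had 650 and 691 in necdin null, beside 819 and 810 in wild type cells (log2 difference -0.28), with 3 of 4 probe sets lower. Fbxw7, another such ligase subunit, had 680 and 872 against 992 and 917 (-0.31), with 1 of 2 probe sets lower. Btrc (-1.22), Gsk3b (-0.23), Gsk3a (-0.052) and the deubiquitinase gene Usp9x (0.34) had groups that overlapped.

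Cytokine receptor and STAT5 genes, which act upstream of Bcl2l1 and Mcl1 transcription, had a median of -0.11, with 3 of 9 higher and 6 lower and none past the test. With median centring the median was -0.19, and 2 were higher. Il3ra was the only one with groups apart, where 30.5% of all genes were, at 99.7 and 98.8 against 116 and 124 (log2 difference -0.27). Genes of the p53 pathway had a median of 0.14, with 8 of 12 higher and 4 lower and none past the test. That median was 0.062 with median centring and 0.086 with quantile normalization. Fas, a death receptor, had 44.6 and 74.4 in necdin null, beside 35.4 and 28.6 in wild type cells (0.79), close to the filter. Phlda3, an inhibitor of AKT, had 218 and 227 against 154 and 201 (0.33), and the nuclease gene Aen had 698 and 638 against 716 and 829 (-0.21).

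**Figure D5:**
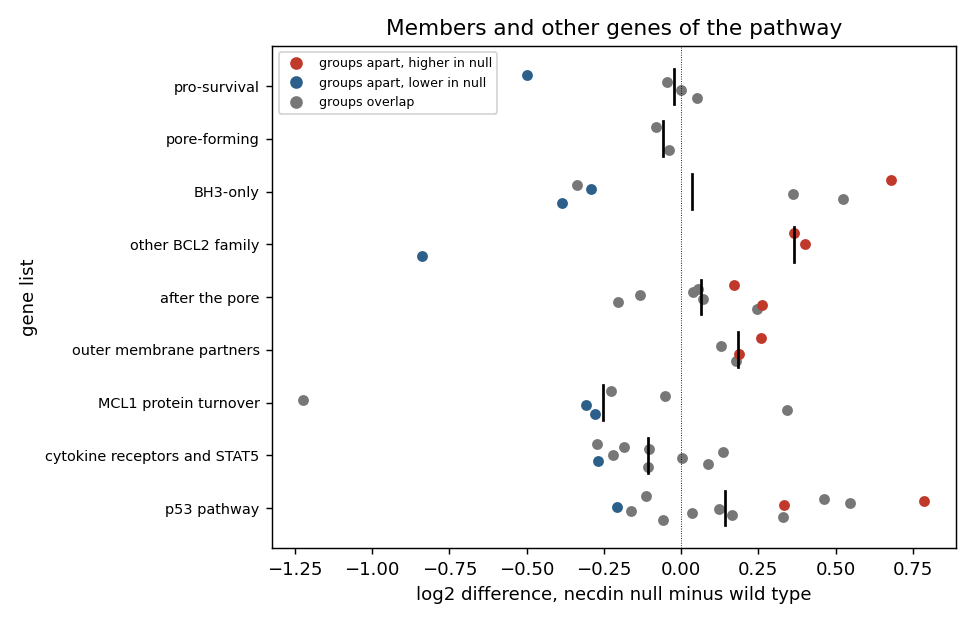
Log2 difference (necdin null minus wild type) of each measured gene, by list, with the median of each list as a black bar; red and blue points mark genes whose groups did not overlap. Medians run from -0.25 for genes of MCL1 protein turnover to 0.37 for other BCL2 family genes, and no gene shown passed the test.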

How the data were processed

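The deposited table holds intensity values of 45101 probe sets on 4 arrays, which are MAS5 signals per the submitters' processing notes (version not given in the sources used here). Biotinylated cRNA was made from total RNA, per the labels' protocols. Detection calls were left out. Precision is limited by the number of arrays.

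Names came from the platform annotation (34958 with 1 symbol, 932 with several, 9211 with none), and all 22 member probe sets matched a gene of RefSeq GRCm38.p6. Coordinates are left out, as no build is named in the files. Values were taken as log2(signal + 3.80), the pseudocount being the 10th percentile, and filtered at the 40th percentile of mean log2 value. The 2 genotypes were compared by limma 3.58.1 under R 4.3.3 (intensity trend, two-sided, Benjamini-Hochberg over everything tested, threshold 0.05), for genes and for probe sets. The code was tested on simulated data. Named genes were the members, Ndn, every measured gene of lists with at most 8, otherwise up to 4 with groups apart and the largest difference, and the 3 genes nearest in pattern to the member of widest range. Members and lists were chosen with earlier results of these data known. Alternatives changed the pseudocount, filter, normalization, variance model, probe set choice, replicate block and arrays.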

Additional observations from a re-analysis of the deposited data

How the results depend on the processing

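The count of members past the threshold and that of member probe sets were 0 under every alternative that kept all 4 arrays. The count of genes past it, 0, was 3 with the replicate block and 0 to 4 when leaving out 1 array, a lone array being assumed to vary like the others. The replicate numbers come with 2 pairs, whose deviations correlated at 0.11 across genes, so the block was not used in the main test; with it the smallest adjusted p of a member was 0.95. Members with groups apart, 1 with all arrays, were 2 of the 5 tested with the mean of all probe sets (Bak1 and Mcl1). In that setting 31.7% of all genes were apart. When leaving out 1 array the count was 1 to 6, where 59.8% to 68.6% of all genes were apart. Bcl2l2 stayed lower wherever it was tested. Its necdin null arrays both read below its wild type arrays, so leaving out an array or changing the pseudocount could not turn that sign. With the mean of all probe sets Bcl2l2 was below the filter. Bok, whose single probe set has the _a_at suffix, gave no value without suffixed probe sets, and neither did the balance. Bok stayed lower elsewhere. Other differences near 0 turned sign: Bcl2 to -0.029 with median centring, Bcl2l1 to 0.052 with quantile normalization and Mcl1 to 0.030 without suffixed probe sets. Leaving out 1 array gave -0.079 to 0.18 for Bcl2, -0.34 to 0.34 for Bcl2l1, -0.10 to 0.0080 for Mcl1 and -0.19 to 0.12 for Bak1. The mean of all probe sets moved differences further, to -0.59 for Bak1, -0.16 for Mcl1, 0.17 for Bcl2 and -0.11 for Bcl2l1. With a pseudocount of 16 the balance overlapped between groups. It was 0.091 on wild type replicate 2 with quantile normalization, and with the mean of all probe sets 0.023 and 0.22 in null cells, beside -0.53 and 0.28 in wild type cells. That setting also placed Bcl2l1 below Bok and Bak1, at a mean log2 value of 5.61. The median difference of all genes, -0.031, became -0.11 with median centring. Dim probe sets limit the reading of Bcl2l1, Bcl2l2 and Bak1. The cause of these changes was not tested.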

Other observations

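Pmaip1, which encodes the MCL1-binding BH3-only protein NOXA, was below the filter, with signals of 1.11 and 41.8 on the necdin null and 38.4 and 129 on the wild type arrays. Bik, another BH3-only gene, was also below it, at 16.1 and 44.3 against 17.2 and 44.7. Usp9x, whose protein removes ubiquitin from MCL1, had 1267 and 2493 in null cells, beside 1074 and 1826 in wild type cells, so that, like the Bcl2 probe sets, both replicate 2 arrays read above the replicate 1 array of their group; only 2 of its 7 probe sets had the direction of its log2 difference, 0.34. Btrc had 293 and 50.6 against 344 and 249, with the low signal on necdin null replicate 2, and 2 of its 5 probe sets were lower.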
